A study of Mus musculus with 6 samples.

Results

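Interferon response genes are the transcripts that cells raise when an interferon binds its receptor, and 34 of them, given as a list of gene symbols, were followed in embryonic skin lacking Get1. A gene was represented by its brightest probe set, the one with the highest mean log2 signal over the 6 arrays. Of the 34 genes, 32 had a probe set that named them alone. Isg15 had only a probe set shared with Gm9706, and the level of Ifi44 was not analysed here. The signal of 24 members was bright enough to be tested among 11387 genes, and the other 8 members with a probe set are given as values.

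Total RNA of back skin at e18.5 (late gestation) was hybridised to 6 oligonucleotide arrays, 3 of Get1 -/- mice and 3 of Get1 +/+ mice. Get1, now called Grhl3 for grainyhead-like 3, encodes a transcription factor of surface epithelia that is needed to complete the epidermal barrier. The labels give the same skin region for both genotypes and neither strain, litter nor sex, and they do not say which part of the gene was deleted. Signals are in MAS5 units, linear brightness values with the same trimmed mean on every array, and precision is limited by there being 3 arrays a genotype.

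Interferons signal through Janus kinases. Type I interferons (alpha and beta) activate a complex of STAT proteins and Irf9 that binds the interferon-stimulated response element (ISRE), and interferon gamma activates STAT dimers that bind the gamma-activated site (GAS). Their targets detect viral RNA, degrade RNA, block viral entry or release, and load antigen onto MHC class I. Keratinocytes and the macrophages of skin both carry this programme, and a low tonic level of it is known without infection.

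The tissue read as skin. Epidermal Krt5 read between 18878 and 22701 and dermal Col1a1 between 23083 and 31868 on the 6 arrays. Grhl3 itself read 246, 413 and 379.7 in Get1 -/- skin, against 478, 934 and 670.1 in Get1 +/+ skin, and its log2 change of -0.98 did not pass (limma, adjusted p = 0.497). Without knowing the deleted part this probe set does not check the genotype. Over all 11387 genes 3 were called higher and 2 lower in Get1 -/- skin, which is 0.0263% and 0.0176% (limma, Benjamini-Hochberg adjusted p under 0.05). That total of 5 became 122 without Get1 +/+ replicate 1, and 3 without Get1 +/+ replicate 2 or without Get1 +/+ replicate 3. Correlations between arrays over these genes ran from 0.925 to 0.976.

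The promoters of 4 members are shown because they carry the letters of the ISRE, the element through which type I interferons act. Each run is 300 bases of RefSeq sequence (GRCm38.p6), from 250 bases before the annotated transcript start to 50 after it, 5′ to 3′ on the gene's strand. Capitals mark matches to GAAANNGAAA on either strand, and overlapping matches run together. Isg15 lies on the minus strand at chr4:156200769-156201068, Ifit3 on the plus strand at chr19:34583279-34583578, Gbp3 on the plus strand at chr3:142559794-142560093 and Igtp on the plus strand at chr11:58199306-58199605.
Isg15: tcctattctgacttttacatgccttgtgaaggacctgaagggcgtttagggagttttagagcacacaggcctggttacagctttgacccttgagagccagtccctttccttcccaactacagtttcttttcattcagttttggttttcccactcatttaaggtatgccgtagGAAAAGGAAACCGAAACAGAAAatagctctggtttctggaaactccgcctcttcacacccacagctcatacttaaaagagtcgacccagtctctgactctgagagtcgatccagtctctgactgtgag
Ifit3: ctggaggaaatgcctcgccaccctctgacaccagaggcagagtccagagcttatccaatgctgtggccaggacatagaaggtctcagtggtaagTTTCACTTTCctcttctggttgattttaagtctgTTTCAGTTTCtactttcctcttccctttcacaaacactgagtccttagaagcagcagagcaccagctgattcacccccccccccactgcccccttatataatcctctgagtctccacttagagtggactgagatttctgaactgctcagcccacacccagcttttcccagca
Gbp3: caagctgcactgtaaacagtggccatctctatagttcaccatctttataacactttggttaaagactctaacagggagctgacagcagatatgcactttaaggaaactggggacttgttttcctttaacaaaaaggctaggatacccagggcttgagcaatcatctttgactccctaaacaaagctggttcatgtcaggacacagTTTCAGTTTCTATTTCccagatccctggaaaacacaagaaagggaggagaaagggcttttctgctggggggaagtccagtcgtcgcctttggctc
Igtp: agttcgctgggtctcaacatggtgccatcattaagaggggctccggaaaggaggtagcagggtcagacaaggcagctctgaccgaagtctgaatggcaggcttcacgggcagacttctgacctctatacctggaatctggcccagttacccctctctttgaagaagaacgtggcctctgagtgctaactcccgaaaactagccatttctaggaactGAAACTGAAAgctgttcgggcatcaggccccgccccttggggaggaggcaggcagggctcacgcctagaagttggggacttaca

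Of the 29 members with a promoter window in the RefSeq table, 15 (51.7%) held at least 1 such match. Among all 27025 genes with a window the share was 3.99%, and among all 32851 windows it was 3.44%. Dhx58, Oas2, Mx1, Mx2 and Usp18 had no window in the table. In Isg15 3 matches overlapped between 78 and 66 bases before the start, counted to the first base of each match. Igtp had its match 34 bases before the start, and Ifit3 had 2, at 156 and 122 bases. The matches of the other 11 members lay on chromosome 10 (Stat2, 222 bases before the start), 19 (Ifit1, 104), 12 (Rsad2, 120), 8 (Bst2, 130), 3 (Gbp2, 59), 5 (Oas1a, 20, and Cxcl10, 213) and 11 (Irgm1, 30). After the start they lay on chromosome 4 (Ddx58, 3 bases), 17 (Eif2ak2, 19) and 2 (Ifih1, 33). These 11 are shown with up to 10 bases on each side, the first one in the window for each gene, with the match in capitals.
Stat2: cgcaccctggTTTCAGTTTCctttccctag
Ifih1: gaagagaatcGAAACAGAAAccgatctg
Ddx58: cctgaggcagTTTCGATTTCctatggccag
Eif2ak2: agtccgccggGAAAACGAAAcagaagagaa
Oas1a: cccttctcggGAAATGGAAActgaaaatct
Ifit1: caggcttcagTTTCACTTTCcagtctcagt
Rsad2: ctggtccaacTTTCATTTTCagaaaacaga
Bst2: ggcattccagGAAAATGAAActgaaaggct
Gbp2: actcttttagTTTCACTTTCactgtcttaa
Irgm1: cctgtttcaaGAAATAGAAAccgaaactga
Cxcl10: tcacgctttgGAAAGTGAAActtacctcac

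The GAS letters, TTCNNNGAA, which read the same on both strands, were found in 10 of the 29 members (34.5%) and in 9.55% of all genes with a window. They are shown for 3 members without ISRE letters, Irf1 (chromosome 11, 90 bases before the start), Irf8 (chromosome 8, 171 bases) and Psmb8 (chromosome 17, 97 bases), with the first match of each in capitals.
Irf1: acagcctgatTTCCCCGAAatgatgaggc
Irf8: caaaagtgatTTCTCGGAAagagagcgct
Psmb8: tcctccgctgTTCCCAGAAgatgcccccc

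A GAS match overlapped an ISRE match in Bst2 alone among the members. The windows of Psmb9 and Tap1, which are transcribed away from each other on chromosome 17, cover much of the same bases (chr17:34187281-34187580 on the minus strand and chr17:34187306-34187605 on the plus strand) and held neither motif. The 11 tested members with ISRE letters had a median log2 change of 0.30, and the 12 tested members with a window and no ISRE letters had one of 0.24. The 12 include Xaf1 at 0.87 by its brightest probe set, which another probe set contradicts. A match describes letters in this window only.

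**Figure D1:**
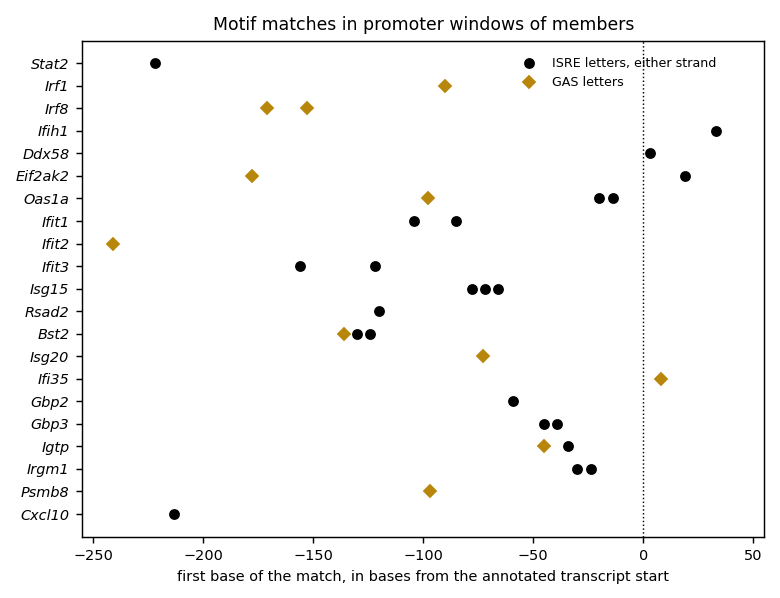
Positions of ISRE letters (black circles, either strand) and GAS letters (gold diamonds) in the promoter windows of the 21 members with a match, as the first base of each match in bases from the annotated transcript start (dotted line). ISRE matches of Isg15, Gbp3, Igtp and Irgm1 lie within 78 bases before the start, and those of Ifih1, Ddx58 and Eif2ak2 lie after it.

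No member was called between genotypes. Of the 24 tested, 20 had a positive log2 change (higher mean in Get1 -/- skin) and 4 a negative one, with a median of 0.30, where 51.3% of all genes were higher and their median was 0.0076. Adjusted p-values of the 24 ran from 0.583 to 0.999 (limma), and 1 of the 24, Igtp, had an unadjusted p under 0.05, where 931 of the 11387 genes did. The median was 0.15 without Get1 -/- replicate 1 and 0.16 without Get1 +/+ replicate 2. All 3 Get1 -/- arrays lay above all 3 Get1 +/+ arrays for 3 of the 24, Irf8, Ddx58 and Igtp, beside 5.2% of all genes, and for none did they lie below, beside 6.78% of all genes. The upper 95% bound of the fold, Get1 -/- over Get1 +/+, ran from 1.27 for Irf1 to 2.91 for Ifit3 and 5.54 for Xaf1, so changes of up to those sizes are not resolved by 3 arrays a genotype. Xaf1 is counted here by its brightest probe set, which another probe set contradicts, and without it 19 of 23 were higher, with a median of 0.30. In whole skin, fewer cells of a type and less RNA per cell cannot be told apart.

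**Figure D2:**
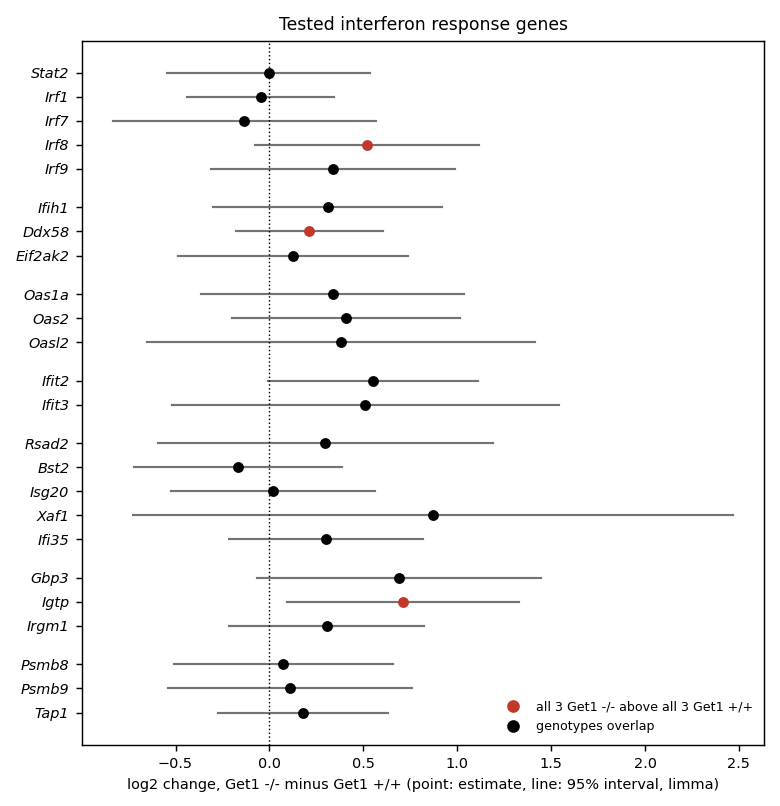
Log2 change of each tested member, Get1 -/- minus Get1 +/+, as the limma estimate (point) with its 95% interval (line), grouped by role. The interval of Igtp alone lies above 0. Red points mark Irf8, Ddx58 and Igtp, whose genotypes do not overlap.

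Many members, though not all, were high or low on the same arrays. Get1 -/- replicate 1 was the highest array for 11 of the 24 members, and Get1 +/+ replicate 3 for 9. Over all genes those arrays were the highest for 14.7% and 29.5%. Get1 +/+ replicate 2 was the lowest array for 14 of the 24 members, where it was the lowest for 23.0% of all genes. All 24 members were brighter on Get1 -/- replicate 1 than on Get1 +/+ replicate 2, where 54.8% of all genes were. Within Get1 +/+ skin 20 of the 24 were brighter on replicate 3 than on replicate 2, by a median log2 difference of 0.61, where the median over all genes was 0.076. Within Get1 -/- skin 19 of the 24 were brighter on replicate 1 than on replicate 3, by a median of 0.45. Of all genes 43.0% were, and their median was -0.044.

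The mean log2 deviation of the 24 members from their own 6-array means was 0.38, 0.18 and -0.12 in Get1 -/- skin, against -0.14, -0.49 and 0.20 in Get1 +/+ skin. Genotypes therefore overlapped. Get1 +/+ replicate 3 was above Get1 -/- replicate 3 and about level with Get1 -/- replicate 2. Of the 24 members 14 were brighter on Get1 +/+ replicate 3 than on Get1 -/- replicate 2, where 58.9% of all genes were. The summed signal of the 24 was 12229, 10435 and 8758 in Get1 -/- skin, against 8288, 7150 and 10756 in Get1 +/+ skin. The pooled within-genotype SD of a member had a median of 0.36 on the log2 scale, and that of all genes tested a median of 0.23. These medians were not matched for signal, and the members were dimmer. A filter at a signal of 432 kept 5 of the 24 members and 8076 of the 11387 genes.

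**Figure D3:**
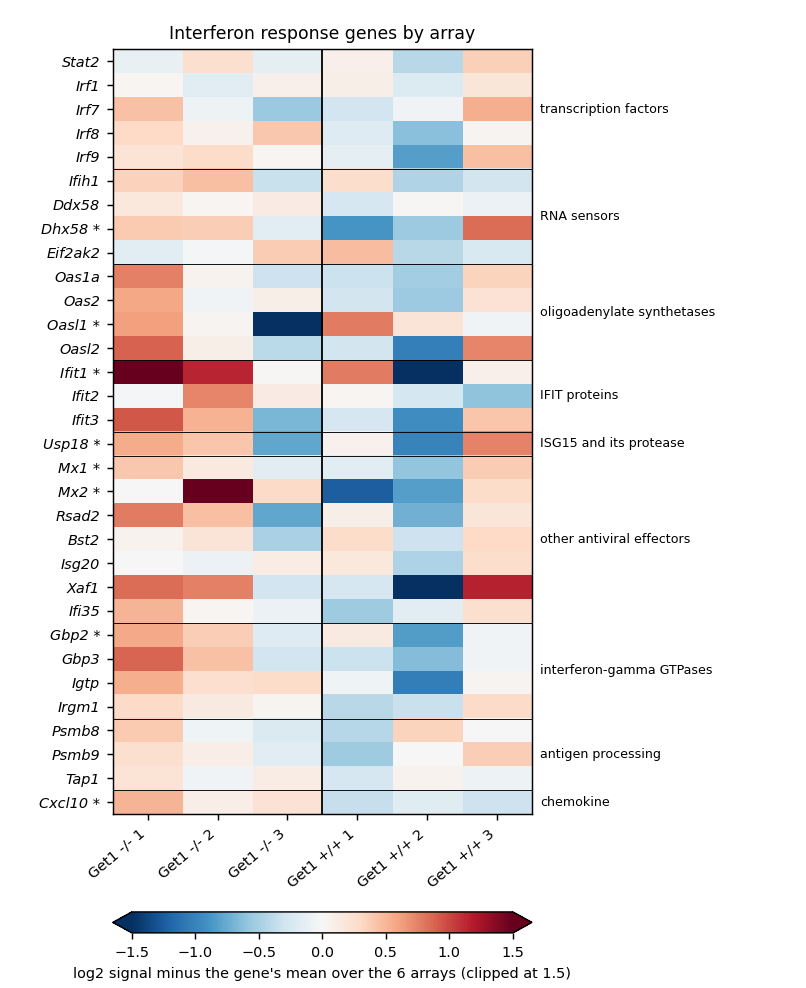
Log2 signal of the 32 members with a probe set of their own, minus each gene's mean over the 6 arrays, with rows grouped by role and asterisks on the 8 members under the filter (red above the mean, blue below, colours clipped at 1.5). Get1 -/- replicates 1 and 2 and Get1 +/+ replicate 3 are mostly red and Get1 +/+ replicate 2 mostly blue.

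Transcription factors of the pathway had the smallest median difference of any role, with 2 of 5 higher and a median log2 change of -0.0038. Stat2, the STAT subunit of the type I complex, read 279, 355 and 275 in Get1 -/- skin and 316, 225 and 385 in Get1 +/+ skin. Its DNA-binding partner Irf9 read 588, 614 and 519 in Get1 -/- skin, against 464, 287 and 696 in Get1 +/+ skin. Both had their lowest value on Get1 +/+ replicate 2 and their highest on Get1 +/+ replicate 3, so the Get1 -/- values lay inside the Get1 +/+ range. The log2 change of Irf9 was 0.34, and 0.010 without Get1 +/+ replicate 2. Irf7, which drives the second wave of interferon alpha, read 327, 230.0 and 164 in Get1 -/- skin and 198, 233 and 353 in Get1 +/+ skin. Its highest and lowest arrays were Get1 +/+ replicate 3 and Get1 -/- replicate 3.

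Irf1, an early target of interferon gamma, was among the steadiest members, at 572, 495 and 587 in Get1 -/- skin and 595, 483 and 636 in Get1 +/+ skin (log2 change -0.05, 95% interval -0.44 to 0.34). Irf8, a factor of myeloid cells, differed from the other factors. It read 191, 162 and 205 in Get1 -/- skin, against 136, 100.2 and 159 in Get1 +/+ skin, so the genotypes did not overlap, though narrowly. Its log2 change was 0.52 ± 0.26 (SE), with an adjusted p of 0.636 (limma). The second Irf8 probe set, under the filter, read 111, 106 and 105 in Get1 -/- skin and 72.1, 27.2 and 32.3 in Get1 +/+ skin, again without overlap.

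RNA sensors had log2 changes of 0.31 (Ifih1), 0.21 (Ddx58) and 0.13 (Eif2ak2), and none passed. Ddx58, which encodes the RNA helicase RIG-I, varied least of all 24 members within a genotype (SD 0.11 on the log2 scale). It read 386, 354 and 378 in Get1 -/- skin, against 291, 350.0 and 326 in Get1 +/+ skin, which separated the genotypes by a few units between the closest arrays. Its change of 0.21 ± 0.17 (SE) had an adjusted p of 0.795 (limma), and its 2 dimmer probe sets, with changes of 0.66 and 0.45, both placed Get1 -/- skin higher on average. Ifih1 (MDA5), a sensor of long double-stranded RNA, read 426, 458 and 266 in Get1 -/- skin and 401, 245 and 277 in Get1 +/+ skin.

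Eif2ak2 encodes PKR, the kinase that halts translation on double-stranded RNA. It read 245, 274 and 359 in Get1 -/- skin and 381, 207 and 235 in Get1 +/+ skin, and its highest array, Get1 +/+ replicate 1, was the highest for no other tested member. Dhx58 (LGP2), a helicase that modulates both sensors, lay under the filter. It read 119, 116 and 80.2 in Get1 -/- skin and 49.0, 61.7 and 161 in Get1 +/+ skin, with Get1 +/+ replicate 3 again the highest array.

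Oligoadenylate synthetases, which make the messenger that activates RNase L, were high and low on the arrays on which many members were. Oas1a read 599, 368 and 286 in Get1 -/- skin, against 284, 247 and 446 in Get1 +/+ skin. Oas2 read 338, 219 and 240.2 in Get1 -/- skin, against 187, 155 and 263 in Get1 +/+ skin. Oasl2, a synthetase-like protein, read 399, 229 and 163 in Get1 -/- skin, against 178, 106 and 358 in Get1 +/+ skin. In all 3 genes Get1 -/- replicate 1 was the highest array, Get1 +/+ replicate 3 came next, and Get1 +/+ replicate 2 was the lowest. Their log2 changes were 0.34, 0.41 and 0.38, with standard errors of 0.31, 0.27 and 0.46. Without Get1 -/- replicate 1 they were 0.042, 0.22 and 0.034. Without Get1 +/+ replicate 2 they were 0.16, 0.24 and -0.036. Oasl1 lay under the filter and went otherwise, at 173, 117 and 38.1 in Get1 -/- skin and 194, 129.9 and 109 in Get1 +/+ skin.

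The IFIT proteins bind viral RNA that lacks the host cap. Ifit3 read 355, 268 and 116 in Get1 -/- skin and 156, 97.98 and 249 in Get1 +/+ skin, a log2 change of 0.51 with a 95% interval of -0.52 to 1.54. Without Get1 -/- replicate 1, and likewise without Get1 +/+ replicate 2, it was 0.17. Its spread within a genotype (SD 0.76 on the log2 scale) was among the widest of the 24. Ifit2 had the second smallest p of the members and another order of arrays. It read 427, 727 and 476 in Get1 -/- skin, against 446, 365 and 288 in Get1 +/+ skin, so that Get1 +/+ replicate 3, high for most members, was its lowest array. Its change of 0.55 ± 0.25 (SE) did not pass (limma, adjusted p = 0.608). Ifit1, under the filter, ran from 47.0 to 216 in Get1 -/- skin and from 2.49 to 80.0 in Get1 +/+ skin, values too dim for a fold.

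Isg15 is a ubiquitin-like protein and Usp18 the protease that removes it and dampens receptor signalling. The probe set that Isg15 shares with Gm9706 read 419.8, 311 and 178 in Get1 -/- skin and 285, 201 and 409 in Get1 +/+ skin, and its signal cannot be given to either gene. Usp18, under the filter, read 196, 179 and 78.3 in Get1 -/- skin and 139.8, 67.0 and 225 in Get1 +/+ skin. Both had Get1 -/- replicate 1 and Get1 +/+ replicate 3 as their brightest arrays.

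Among the other antiviral effectors, Rsad2 (viperin), which stops viral RNA synthesis with a modified nucleotide, read 712, 569 and 242 in Get1 -/- skin and 443, 252 and 473 in Get1 +/+ skin. Bst2 (tetherin), which holds budding virus at the cell surface, read 417, 459 and 287 in Get1 -/- skin, against 486, 324 and 496 in Get1 +/+ skin. Isg20, an exonuclease, read 244, 228 and 263 in Get1 -/- skin, against 271, 177 and 292 in Get1 +/+ skin. The 3 genes had log2 changes of 0.30, -0.17 and 0.02, each smaller in size than its SE. Ifi35, a partner of Nmi, read 3003, 2152 and 1982 in Get1 -/- skin and 1453, 1894 and 2489 in Get1 +/+ skin. Its 2 other probe sets had log2 changes of 0.15 and 0.05, against 0.30 for the brightest. The Mx GTPases lay under the filter, Mx1 between 54.7 and 109 and Mx2 between 7.58 and 50.8 over the 6 arrays.

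Xaf1, an interferon-induced protein that opposes the apoptosis inhibitor XIAP, had the widest spread of the 24 (within-genotype SD 1.28 on the log2 scale), and its probe sets went opposite ways. The brightest read 439.8, 415 and 201 in Get1 -/- skin and 206, 53.0 and 548 in Get1 +/+ skin. The other kept probe set read 47.6, 55.1 and 426 in Get1 -/- skin and 387, 394 and 54.5 in Get1 +/+ skin. Each sorted the arrays into the same 2 sets of 3, with Get1 -/- replicates 1 and 2 and Get1 +/+ replicate 3 high on the first and low on the second. The log2 change between genotypes was 0.87 by the first and -0.96 by the second, and the mean of both gave -0.046. What these probe sets detect was not tested, so no direction is given for Xaf1.

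**Figure D4:**
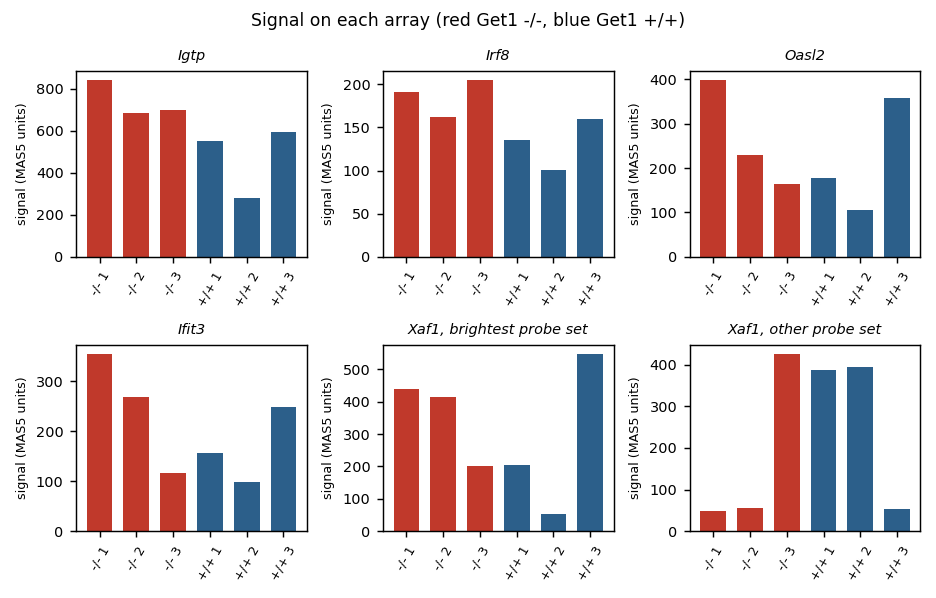
MAS5 signal on each array (red bars Get1 -/-, blue bars Get1 +/+, 1 array a bar, linear axes from 0) for Igtp, Irf8, Oasl2, Ifit3 and both kept probe sets of Xaf1. Igtp and Irf8 separate the genotypes, and the Xaf1 probe sets mirror each other. Oasl2 is high on Get1 -/- replicate 1 and Get1 +/+ replicate 3, and Ifit3 on these and Get1 -/- replicate 2.

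The interferon gamma GTPases, which take part in defence against intracellular parasites, had the largest differences of any role, with a median log2 change of 0.69 over 3 tested genes. Igtp (Irgm3) read 845, 685 and 697 in Get1 -/- skin, against 550.0, 282 and 592 in Get1 +/+ skin. All Get1 -/- arrays lay above all Get1 +/+ arrays, and Get1 +/+ replicate 2 stood well below the rest. The mean was 742 ± 88.9 in Get1 -/- skin and 475 ± 168 in Get1 +/+ skin (SD, n = 3 each). The log2 change of 0.71 ± 0.27 (SE), with a 95% interval of 0.09 to 1.33, had the smallest p of the members and did not pass over all genes (limma, adjusted p = 0.583). It was 0.37 without Get1 +/+ replicate 2 and 0.61 to 0.91 with any other array left out.

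Gbp3, a guanylate-binding protein, read 271, 201 and 122 in Get1 -/- skin and 118, 94.1 and 143 in Get1 +/+ skin, a log2 change of 0.69 ± 0.34 (SE) with overlap (limma, adjusted p = 0.630). Irgm1, which restrains the effector GTPases of its family, read 352, 316 and 299 in Get1 -/- skin, against 217, 230.4 and 353 in Get1 +/+ skin. Here Get1 +/+ replicate 3 was level with the highest Get1 -/- array. Gbp2 lay under the filter, at 179, 156 and 106 in Get1 -/- skin and 133, 67.3 and 117 in Get1 +/+ skin.

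Genes of antigen processing had log2 changes of 0.07 to 0.18 between genotypes, each smaller than its SE. Psmb8, a subunit of the immunoproteasome, read 347, 252 and 229 in Get1 -/- skin and 196, 332 and 263 in Get1 +/+ skin. Psmb9, another subunit, read 191, 173 and 144 in Get1 -/- skin, against 112, 162 and 209.9 in Get1 +/+ skin. Tap1, the peptide transporter that shares its promoter region with Psmb9, read 274, 229.8 and 258 in Get1 -/- skin, against 200.3, 247 and 226 in Get1 +/+ skin. In all 3 the lowest array was Get1 +/+ replicate 1, not replicate 2 as in most other members. Tap1 and Psmb9 did not share their highest array.

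Cxcl10, a chemokine that draws T cells, lay under the filter and was the only one of those 8 members without overlap. It read 152, 115 and 124 in Get1 -/- skin and 84.1, 93.5 and 85.8 in Get1 +/+ skin. Of the 11387 genes above the filter 5.2% lay higher without overlap, and the share under the filter was not counted. With no filter its log2 change was 0.56 ± 0.31 (SE) and did not pass (limma, adjusted p = 0.734). In that fit 0 of the 32 members passed, and 1 had an unadjusted p under 0.05.

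Other genes of the pathway were taken from a list of 100, of which 87 had a probe set of their own and 59 were tested. None passed in either direction (limma, smallest adjusted p 0.497), and 38 were higher and 21 lower, with a median log2 change of 0.05. An unadjusted p under 0.05 (limma) was found for 3 of the 59, where 931 of the 11387 genes had one. The 9 interferon genes with a probe set all lay under the filter, between 1.56 and 151 on any array. Receptor subunits had 1 of 6 higher, and Ifngr1, the ligand-binding chain for interferon gamma, had a change of -0.28 ± 0.18 (SE). Of kinases and STATs 3 of 4 were higher, with Jak2 at 0.29 ± 0.18. Negative regulators had 1 of 5 higher, the phosphatase Ptpn2 at 0.32 ± 0.17.

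Genes of sensing and induction were split, 8 of 11 higher, and Tlr9, the DNA sensor of endosomes, had a log2 change of -0.59 ± 0.36. Of 33 other interferon-induced genes 25 were higher, with a median of 0.15. Trim30a, a ubiquitin ligase of the TRIM family, read 513, 378 and 303 in Get1 -/- skin, against 250.2, 141 and 216 in Get1 +/+ skin, a separation of the genotypes with a log2 change of 0.98 ± 0.28 (SE; limma, adjusted p = 0.497). Gbp7, named here after its values were seen, read 652, 701 and 591 in Get1 -/- skin, against 609, 249 and 283 in Get1 +/+ skin. Among the alternatives run it passed only without Get1 +/+ replicate 1 (log2 change 1.28, limma, adjusted p = 0.0314). The mean deviation of these 59 genes had the same ends as that of the members, 0.19 on Get1 -/- replicate 1 and -0.19 on Get1 +/+ replicate 2.

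Some markers of leukocytes had a higher mean in Get1 -/- skin, as most members did, and none passed the test. Ptprc, the pan-leukocyte CD45, read 788, 851 and 769 in Get1 -/- skin, against 553, 376 and 319 in Get1 +/+ skin, and did not pass (log2 change 0.99 ± 0.21 (SE), limma, adjusted p = 0.30). Of 14 macrophage markers 13 were tested and 10 were higher, with a median log2 change of 0.44. An unadjusted p under 0.05 (limma) was found for 6 of the 13, where 931 of the 11387 genes had one. The summed signal of the 13 markers ran from 18004 to 20593 in Get1 -/- skin and from 13043 to 17374 in Get1 +/+ skin, without overlap. A sum mostly follows the brightest markers, and no such sum was taken over other genes for comparison. Gene by gene, 5 of the 13 lay higher without overlap, beside 5.2% of all genes, and 0 lay lower, beside 6.78%. Csf1r, the brightest marker, overlapped and was highest on Get1 +/+ replicate 3. C1qa, a complement subunit made by macrophages, had the smallest p among them (log2 change 0.64 ± 0.19, SE), and Adgre1 (F4/80) had a log2 change of 0.22 ± 0.17.

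Macrophage markers did not keep the order of the members on every array. Their mean log2 deviation was 0.31, 0.10 and 0.11 in Get1 -/- skin, against -0.22, -0.29 and -0.0024 in Get1 +/+ skin. Here Get1 +/+ replicate 3 lay below every Get1 -/- array. For the members it was above Get1 -/- replicate 3 and about level with Get1 -/- replicate 2. Cd3e, which defines T cells, read 15.1 to 97.6 and Siglech, of plasmacytoid dendritic cells, 8.10 to 68.7 over the 6 arrays, all under the filter. Some other markers under the filter did not overlap, in both directions. Itgax and Cd8a were lower in Get1 -/- skin, and Cd3d and Cd79a were higher, all named after their values were seen. Of 15 lymphoid markers only Ptprc was tested. Of 9 antigen-presenting markers 5 were tested and 4 were higher, with a median log2 change of 0.22. Among them H2-Aa had a log2 change of 0.50 ± 0.24 (SE, as for the genes that follow). Epcam, added after its values were seen, was lower without overlap (-0.26 ± 0.15). Of 8 neutrophil markers 2 were tested (Camp -0.24 ± 0.22, and Ngp, added after its values were seen, 0.29 ± 0.39). The 6 endothelial markers had a median of 0.29 (Kdr 0.39 ± 0.18), the 7 of epidermis one of -0.12 (Lor -0.52 ± 0.21) and the 5 of dermis one of -0.068 (Dcn 0.15 ± 0.15). The part of leukocyte RNA in the members' values was not tested.

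**Figure D5:**
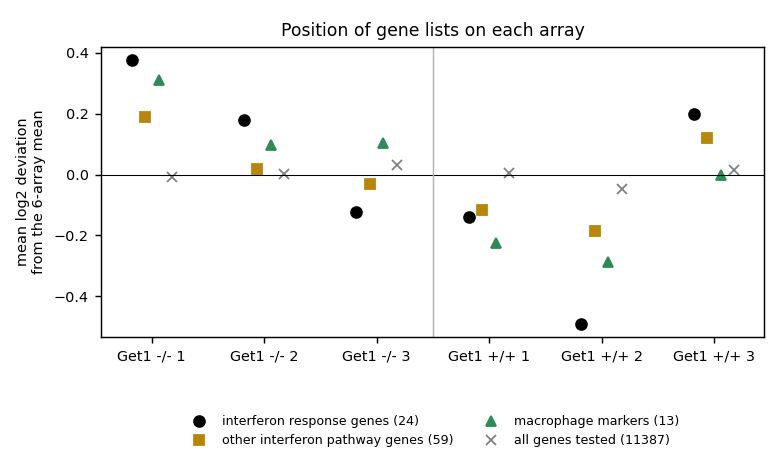
Mean log2 deviation from the 6-array mean on each array for the 24 tested members (black circles), the 59 other pathway genes (gold squares), 13 macrophage markers (green triangles) and all 11387 genes (grey crosses). The members range from -0.49 on Get1 +/+ replicate 2 to 0.38 on Get1 -/- replicate 1, and all genes stay near 0.

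Arrays also differed in 1 of the controls. The middle probe set of the beta-actin control read 18407 on Get1 -/- replicate 1 and 19025 and 19858 on Get1 +/+ replicates 1 and 2. It read 10118 and 13060 on Get1 -/- replicates 2 and 3 and 10906 on Get1 +/+ replicate 3. The ratio of its 3′ to its 5′ probe set, a sign of RNA integrity, was 1.44, 1.49 and 1.36 in Get1 -/- skin and 1.35, 1.36 and 1.37 in Get1 +/+ skin. The Gapdh control did not divide the arrays in this way, its middle probe set reading 22357, 18374 and 24305 in Get1 -/- skin and 21650, 19994 and 21927 in Get1 +/+ skin.

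Over the arrays with a high actin signal the members' median log2 difference, Get1 -/- minus Get1 +/+, was 0.63 (all genes 0.029), and over those with a low one it was -0.25 (all genes -0.070). The first sets Get1 -/- replicate 1 against Get1 +/+ replicates 1 and 2, and the second sets Get1 -/- replicates 2 and 3 against Get1 +/+ replicate 3. These sets were chosen after seeing the data, and with 1 array of a genotype in each they give the levels of single arrays described above in another form. The part of array quality in the members' values was not tested.

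Of the members 11 had more than 1 probe set, and of their 18 dimmer ones 10 had the sign of the brightest. The signals of the 3 dimmer Tap1 probe sets reached 61.9 at most and that of the dimmer Psmb8 one 46.9. The other kept probe set of Stat2 had a log2 change of 0.44, against -0.0038 for the brightest, and that of Eif2ak2 one of 0.35, against 0.13. The kept ones of Rsad2 had changes of 0.37 and -0.06, against 0.30.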

How the data were processed

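Per the labels' protocols, RNA isolated with TRIzol was cleaned on a column, and biotin-tagged cRNA was made from it through a T7-primed cDNA. The deposited values are intensities on a linear scale, and MAS5 is the tool that the submitters' processing notes name, without a version. The 2% trimmed mean was 500.0 on every array, so no further scaling was applied. The table holds 45101 probe sets, 64 of them controls, without detection calls.

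Values were turned into log2, and a filter on dim values kept 22519 of 45037 probe sets, those whose 6-array mean reached the median mean (137 in signal). The brightest kept probe set naming 1 gene stood for that gene, which gave 11387 genes. Symbols are those of the platform annotation. The test of genotype was that of limma (version 3.58.1, R 4.3.3; eBayes with trend, two-sided), with Benjamini-Hochberg adjustment over all genes and a threshold of 0.05. The code was tested on simulated data. The alternatives were other scaling, filters, an offset, array weights, a mean over probe sets, a replicate block and each array left out. The study states 3 mice per genotype and no litters, so p-values measure the spread between these 6 arrays. Members, gene lists and motifs were chosen with earlier results of these data known. All members are named. Other pathway genes are named by the smallest p in their role. Markers are named by the smallest p in their list beside fixed defining markers. Some further genes were named after their values were seen. Promoter sequences come from RefSeq (GRCm38.p6), whose table served for sequences and older symbols alone.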

Additional observations from a re-analysis of the deposited data

How the results depend on the processing

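None of the members passed the threshold under any of the 15 alternatives (limma), with 0 to 5 at an unadjusted p under 0.05. Genes past the threshold numbered 5, against 10 with median centring, 8 with array weights, 44 with the replicate number as a replicate block, and 3 to 122 with each array left out. Same-numbered arrays of the genotypes had correlations of deviations of -0.02, 0.36 and -0.03, so the numbers were not taken as pairs. The block changed no member's call. Of other pathway genes 0 to 1 passed with an array left out. The members' median was 0.15 to 0.43 with an array left out. It was 0.63 where the actin control was high and -0.25 where it was low. Those actin sets were chosen after seeing the data and restate the levels of single arrays. With the stricter filter (a signal of 432) 5 members were tested and 4 were higher. Of 341 results of a member under an alternative, 25 reversed in sign, in 11 members, none of them called. Stat2 was at 0.00088 with median centring, 0.053 with array weights and 0.22 as the mean of its probe sets. Array weights gave 0.050 for Irf1 and -0.079 for Psmb8, and the mean of probe sets gave -0.046 for Xaf1. With each array left out the log2 change ran from -0.21 to 0.17 for Stat2, -0.16 to 0.036 for Irf1, -0.38 to 0.11 for Irf7, -0.051 to 0.39 for Eif2ak2, -0.036 to 0.84 for Oasl2, -0.015 to 0.76 for Rsad2, -0.37 to 0.035 for Bst2, -0.20 to 0.16 for Isg20, -0.017 to 1.67 for Xaf1, -0.12 to 0.26 for Psmb8 and -0.13 to 0.32 for Psmb9. Members that kept their sign also moved, Igtp from 0.37 to 0.91, Irf8 from 0.34 to 0.67, Gbp3 from 0.42 to 1.00, Ifit2 from 0.32 to 0.71, Ifit3 from 0.17 to 0.98, Irf9 from 0.010 to 0.65, Ifih1 from 0.16 to 0.55, Oas1a from 0.042 to 0.59, Oas2 from 0.22 to 0.62, Ifi35 from 0.11 to 0.50, Irgm1 from 0.17 to 0.52, Ddx58 from 0.14 to 0.27 and Tap1 from 0.10 to 0.25. The causes were not tested. MAS5 signals came without detection calls here, so a dim probe set could not be told from background.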
